A study of Homo sapiens with 4 samples.

Results

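The oestrogen receptor, BIG3 and prohibitin genes are the genes on which the stapled peptides of the study were built, together with genes that report oestrogen receptor activity. The set holds 10 genes, which were chosen by their role: the receptors ESR1, ESR2 and GPER1, the peptide's target complex ARFGEF3 (BIG3) and PHB2, the receptor-dependent genes PGR, GREB1 and TFF1, and the luminal factors FOXA1 and XBP1. Of the 20501 genes that had a probe in the series, 9 belonged to this set, with 18 probes. PHB2 had no probe that the gene table could name.

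MCF-10A, a non-tumour line of human breast epithelium, received 10 µM of stapled-peptide or of non-specific stapled-peptide for 24 h or for 48 h before RNA extraction. Each of the 4 combinations was measured on 1 single-colour Agilent array. All groups were grown in the same mammary medium, which per the labels held pituitary extract, hydrocortisone, EGF, insulin and cholera toxin, and the labels name no group without peptide and no added oestradiol (E2). In the labels the groups given non-specific stapled-peptide carry the word control. The labels do not tie either peptide to a numbered analogue of the study. The paper reports arrays of this line for a pair of its numbered analogues. It proposes off-target effects for 1 of them, which also slowed the growth of these cells. As the labels do not settle which is which, each difference is given as non-specific stapled-peptide minus stapled-peptide.

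ERα, the product of ESR1, is a nuclear receptor that switches on genes such as PGR, GREB1 and TFF1 when it binds E2, and FOXA1 opens the chromatin at many of its sites. In oestrogen-dependent breast cancer cells BIG3 holds the repressor PHB2 in the cytoplasm, so that PHB2 cannot dampen ERα in the nucleus, and peptides shaped after the PHB2-binding helix of BIG3 compete for this contact. MCF-10A belongs to the basal type of mammary epithelium, which is known for little or no ERα. The paper states that this line expresses neither ERα nor BIG3.

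All arrays were hybridized on 1 slide and scanned in 1 run, and 62.5% to 65.7% of spots were well above background. Signals were taken as log2 values after quantile normalization over the 4 arrays. The 48 h array of non-specific stapled-peptide stood apart: across probes its Pearson correlation with the other 3 arrays was 0.799 to 0.807, against 0.976 to 0.978 among those. All 8 markers of basal mammary epithelium were well above background on every array, but their summed linear signal was 109149 to 109676 on the other arrays and 438 on this one. Of 8 genes known from embryonic kidney lines, 5 were well above background on this array and 3 or 4 on the others, with summed signals of 43569 and of 787 to 831. The 5 were UCHL1, CKB, LIN28B, HOXA9 and NEFL. L1CAM went the other way, with 2.34 here, not well above background, and 4.15 to 4.82 on the others, where it was. PAX2 and PHOX2A were not well above background here. All marker lists were chosen with earlier results of these data known. The luminal list, with 7 of 8 genes well above background on every array, summed to 6564 here and to 33594 to 35361 on the others. Its sum was thus lower where FOXA1 and XBP1 were higher, but a linear sum follows the brightest genes. Between the peptides at 48 h, 3 of its 7 measured genes were lower past 2-fold and 4 were within 2-fold, with a median of −0.31. Among the latter, KRT19 (0.94) and EPCAM (0.88) had a higher signal on this array. The summed signals of the mesenchymal (16244 against 107592 to 112002), immune (296 against 1437 to 1517) and endothelial lists (62.2 against 674 to 756) were lower on this array too. The markers move with every difference that uses this array, which is each 48 h difference between the peptides and each time difference of non-specific stapled-peptide, and their part in it was not tested. Every label names MCF-10A. Which cells the RNA came from and how much RNA each cell held cannot be told apart in such bulk samples. Each condition has 1 array and no replicate, so no test between conditions was made, and a difference past 2-fold is a description of these arrays.

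At 24 h, 7 of the genes had a difference and 1 of them, ARFGEF3, was past 2-fold, against 1.87% of all 16228 genes measured (0.838% higher and 1.04% lower). Past 4-fold it was 0 of 7, against 0.413% of genes. At 48 h, 5 of 8 were past 2-fold, against 41.0% of 17112 genes, and 2 of 8, ARFGEF3 and XBP1, were past 4-fold, against 16.8%. The genes with a higher signal with non-specific stapled-peptide at 48 h were ARFGEF3, XBP1, FOXA1 and ESR2, and GPER1 had a lower one, whereas ESR1, GREB1 and TFF1 stayed within 2-fold. In all genes the 48 h calls were split into 21.2% higher and 19.8% lower. The median difference of the set was −0.12 at 24 h and 0.66 at 48 h, beside 0.01 and 0.03 for all genes.

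**Figure D1:**
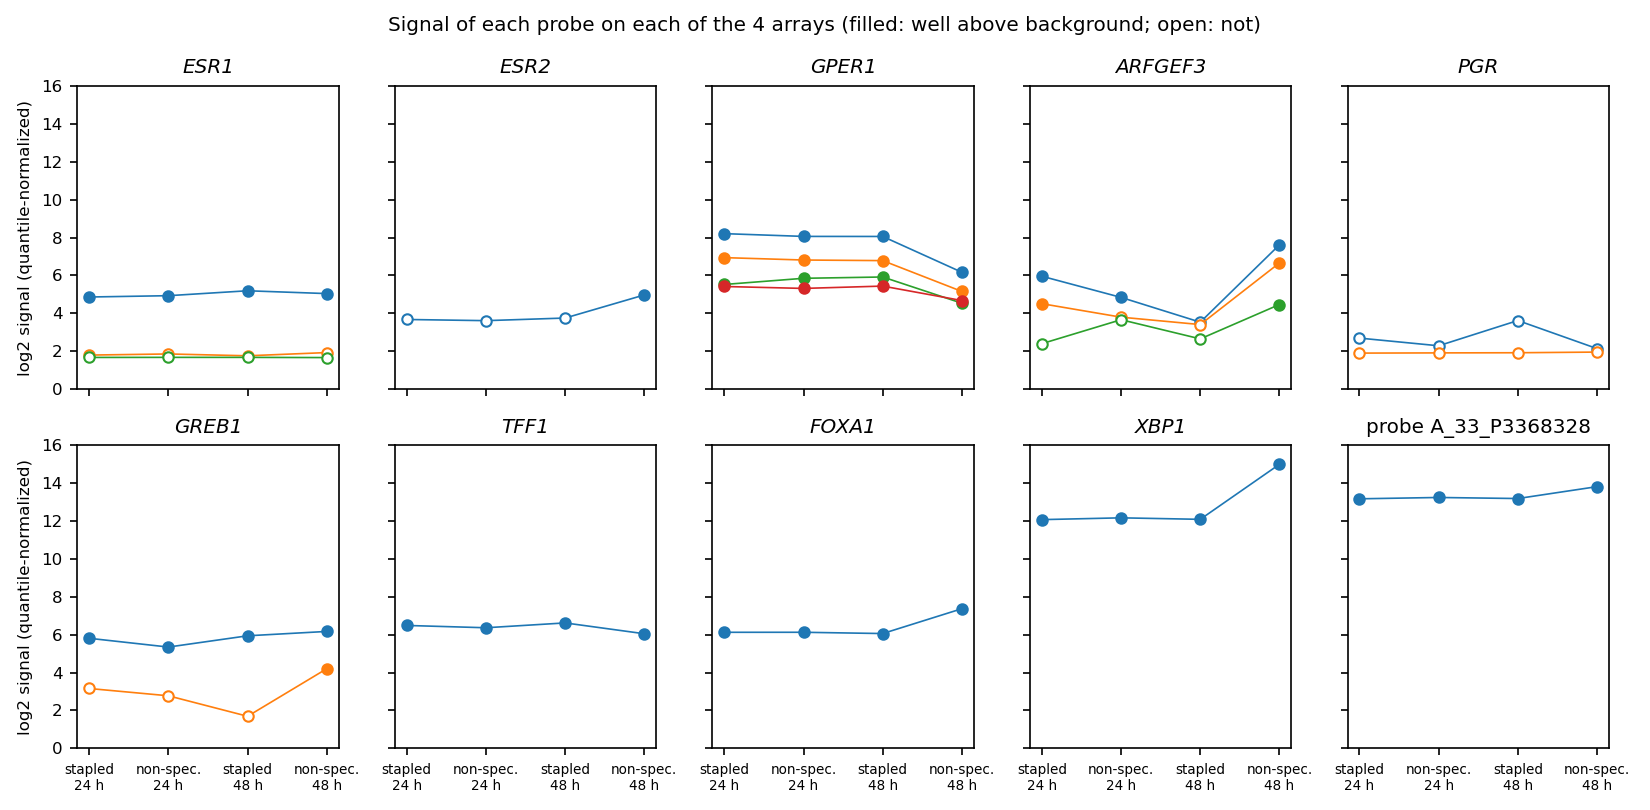
Quantile-normalized log2 signal (y axis) of each probe of the 9 genes, and of the probe A_33_P3368328, on the 4 arrays (x axis); each coloured line is 1 probe, and filled points were well above background. XBP1 lies between 12.07 and 12.16 on 3 arrays and at 14.99 with non-specific stapled-peptide at 48 h, while both PGR probes are open on all arrays.

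The promoters of ARFGEF3 and XBP1, the genes with the largest differences at 48 h, are shown because ERα acts through short elements in DNA. The sequences come from RefSeq on GRCh38.p14, run 5′ to 3′ on the strand of the gene and cover the 250 bases before the start of transcription. Capitals mark the motif GGTCA, a single arm of the oestrogen response element, or its reverse complement TGACC.
ARFGEF3, chr6:138161689-138161938, plus strand: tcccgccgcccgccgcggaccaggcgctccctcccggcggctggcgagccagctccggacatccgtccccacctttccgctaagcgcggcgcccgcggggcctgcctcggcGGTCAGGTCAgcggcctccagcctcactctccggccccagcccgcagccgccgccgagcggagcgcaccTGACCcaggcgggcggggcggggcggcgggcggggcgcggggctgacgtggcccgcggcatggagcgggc
XBP1, chr22:28800570-28800819, minus strand: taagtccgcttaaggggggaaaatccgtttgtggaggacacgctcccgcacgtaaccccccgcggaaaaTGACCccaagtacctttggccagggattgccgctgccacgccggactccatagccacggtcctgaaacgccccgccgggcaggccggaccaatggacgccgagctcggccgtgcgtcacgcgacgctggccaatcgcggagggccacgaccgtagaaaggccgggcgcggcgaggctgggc
In ARFGEF3 a pair of GGTCA motifs follow each other directly, 139 and 134 bases before the start, and another lies 70 bases before it on the opposite strand. The printed XBP1 promoter holds 1, 181 bases before the start. RefSeq gives another XBP1 window, chr22:28800028-28800327, which is not printed because it lies downstream of the start used here, and it holds 2, at 50 bases before and 26 bases after its own start.

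Both strands of the windows, which add 50 bases after the start, were searched for GGTCA and for the full element, in which GGTCA is followed after 3 bases of any kind by TGACC, so that each full element also counts as GGTCA. The promoter sequences used here held 22 windows for 8 of the genes, some of which overlap. They held no window for GREB1 and TFF1, so nothing is said about the promoters of these genes. The full element was in 0 of the 22 windows, and it was in 20 of all 35116 windows (0.0570%). GGTCA was in 9 of 22 windows (40.9%), beside 37.4% of all windows. It occurred at ARFGEF3, ESR1, ESR2, PGR and XBP1, and these letters were not found in the windows of FOXA1, GPER1 and PHB2.

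ESR1 had 3 probes, of which 1 was well above background. At 24 h the log2 signal of A_24_P383478 was 4.86 for stapled-peptide and 4.93 for non-specific stapled-peptide, and at 48 h it was 5.19 and 5.04. These 4 values span 0.33, the array that stands apart lies inside the range of the others, and the scanner software gave each spot an error of 13.6% to 16.8%. The other probes stayed dim throughout. For A_23_P309739, which is printed 10 times, this held for all 37 spots kept. The signal at the measured probe was therefore about the same on all arrays, with differences between the peptides of 0.07 at 24 h and −0.15 at 48 h.

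ESR2 encodes ERβ, the second nuclear oestrogen receptor. Its only probe, A_23_P54100, is printed 10 times and gave 3.68 for stapled-peptide and 3.62 for non-specific stapled-peptide after 24 h, and 3.75 and 4.97 after 48 h. Of the spots kept, 3 of 10, 3 of 9 and 1 of 10 were well above background on the first 3 of these arrays and 10 of 10 on the last. The 48 h difference was thus a bound of at least 1.09 (at least 2.12-fold), set against the lowest signal well above background on the stapled-peptide array. It was 0.93 with arrays scaled to their 75th percentile and 0.30 with the normexp background correction, below 2-fold in both. At the level of spots, without normalization, ESR2 had 3.53 ± 0.53 (SD, n = 10 spots) for stapled-peptide and 4.92 ± 0.24 (n = 10 spots) for non-specific stapled-peptide after 48 h.

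GPER1, a membrane receptor of the G protein-coupled class that responds to E2, was the one gene of the set lower past 2-fold at 48 h, and all 4 of its probes were well above background on every array. The brightest, A_23_P8640, had 8.21 for stapled-peptide against 8.06 for non-specific stapled-peptide after 24 h, and 8.06 against 6.17 after 48 h. The difference at 48 h was −1.89 (3.71-fold), against −0.15 at 24 h. The others had −1.63, −1.39 and −0.76 at 48 h, the last within 2-fold, and between −0.13 and 0.33 at 24 h. All 4 probes thus had their lowest signal on the same array, by a margin of 0.64 to 1.89 below the nearest of the others. Probes of 1 gene read the same RNA and are no replicates of the condition.

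ARFGEF3 encodes BIG3, the protein from which the peptides were derived, and 2 of its 3 probes spanned more over the 4 arrays than any other probe of the set. The brightest, A_33_P3387951, gave 5.96 for stapled-peptide and 4.84 for non-specific stapled-peptide after 24 h. After 48 h it gave 3.54, which was not well above background, and 7.62. The order was the same for A_23_P393880, with 4.51, 3.80, 3.41 and 6.66, of which the first and the last were well above background. Probe A_33_P3246580 had 2.40, 3.67, 2.65 and 4.47, with only the last well above background. All 3 probes were highest on the array that stands apart.

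For A_33_P3387951 the difference between the peptides was −1.12 (2.17-fold lower) at 24 h and at least 3.73 (at least 13.3-fold higher) at 48 h. At least as low a difference was found for 144 of 16228 genes (0.887%) at 24 h, and at least as high a one for 336 of 17112 (1.96%) at 48 h. At A_23_P393880 the differences were bounds of −0.71 and 2.78, and at A_33_P3246580 the 48 h bound was 0.58. The low signals limit these values: before normalization A_33_P3387951 had linear signals of 65.5 and 31.7 at 24 h, and of 9.97 and 217.5 at 48 h, each from 1 spot with a software error of 11.8%, 15.7%, 32.6% and 10.1%. With normexp the 24 h difference was −0.50, below 2-fold, and the 48 h difference 1.73. The mean over the probes that had a 24 h difference was −0.91, with the bound of A_23_P393880 taken as its value. It leaves out A_33_P3246580, which was dim on both arrays at 24 h. The signals of that probe, 2.40 for stapled-peptide and 3.67 for non-specific stapled-peptide, lay in the other direction.

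The probe A_33_P3368328 carries an older RefSeq transcript record, which the gene table pairs with no gene. It was looked at as a candidate probe for PHB2, a name that no table used here gives it, so its values stand for the probe alone. It had 13.17 for stapled-peptide and 13.24 for non-specific stapled-peptide after 24 h, and 13.18 and 13.81 after 48 h. It was bright on all arrays and highest on the last, by 0.63 (1.55-fold) over stapled-peptide. PHB1, the partner of PHB2 in the mitochondrial prohibitin ring, had 11.42 and 11.51 at 24 h and 11.48 and 12.32 at 48 h, a difference of 0.83. Both were within 2-fold.

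PGR, the progesterone receptor gene and a classical target of ERα, was dim on all arrays at both probes. The log2 signals of A_23_P138938 were 2.69 for stapled-peptide and 2.29 for non-specific stapled-peptide after 24 h, and 3.62 and 2.14 after 48 h. No fold is given for a gene that is dim on both arrays compared.

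GREB1, an ERα cofactor that is itself induced by oestrogen, had 5.81 and 5.34 at 24 h and 5.94 and 6.17 at 48 h at its brighter probe, A_23_P329768. The differences of −0.46 and 0.23 were within 2-fold. Its other probe, A_23_P412476, was well above background only with non-specific stapled-peptide at 48 h (4.20), where it gave a bound of 0.32.

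TFF1 encodes a secreted trefoil peptide and is a standard readout of ERα. Probe A_24_P322771 had 6.48 and 6.36 at 24 h and 6.62 and 6.05 at 48 h, with a software error of at most 11.1% per spot. The differences of −0.12 and −0.57 were within 2-fold, and the last array had the lowest signal.

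FOXA1, the pioneer factor of luminal cells, was measured by 1 probe with 10 spots, and its signal was higher on 1 array alone. It had 6.12 with either peptide at 24 h, and after 48 h it had 6.06 for stapled-peptide and 7.37 for non-specific stapled-peptide. The other 3 arrays thus spanned 0.067, whereas the 48 h difference was 1.31 (2.48-fold). Without normalization the spots had 5.82 ± 0.084 (SD, n = 9 spots) and 7.52 ± 0.076 (n = 10 spots) at 48 h, and none of the spots overlapped. The difference was 0.80, below 2-fold, with normexp.

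XBP1, which encodes a transcription factor of the unfolded protein response and is a well-known companion of ERα in luminal tumours, had the largest difference of the genes measured on all arrays. Its log2 signals were 12.07 and 12.16 at 24 h and 12.09 and 14.99 at 48 h. The difference of 2.91 (7.50-fold) at 48 h compared with 0.09 at 24 h, and 620 of 17112 genes (3.62%) had at least as high a difference at 48 h. The spots varied by an SD of 0.036 to 0.043 within an array, which covers the error between spots and not that between cultures. Across the alternative settings the 48 h difference was between 2.63 and 2.96.

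With stapled-peptide, 1 of 7 genes differed past 2-fold between 24 h and 48 h, beside 2.06% of all 16138 genes measured (0.923% higher and 1.13% lower), and 0.521% were past 4-fold. This was ARFGEF3, with −2.07 as the bound at 48 h (at least 4.21-fold lower), and 39 genes (0.242%) had at least as low a difference. ESR1 had 0.33, GPER1 −0.15, GREB1 and TFF1 0.13 each, FOXA1 −0.07 and XBP1 0.02. With non-specific stapled-peptide, 5 of 8 genes were past 2-fold, against 41.3% of 17297 genes (21.3% higher and 20.1% lower), and 2 were past 4-fold, against 16.6%. This comparison shares an array with the 48 h one: ARFGEF3 had 2.78, XBP1 2.83, FOXA1 1.24, ESR2 at least 1.19 and GPER1 −1.89, while GREB1 had 0.82, ESR1 0.11 and TFF1 −0.32.

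The wider pathway was described with 9 lists holding 120 genes, of which 118 had a probe. At 24 h, 0 of the 111 measured genes were past 2-fold between the peptides, and their differences lay between −0.59 and 0.58. At 48 h, non-specific stapled-peptide gave a higher signal for 19 of 113 and a lower one for 31, with 63 within 2-fold (44.2% past it, beside the 41.0% of all genes). The split depends on the scaling: it was 31 higher and 26 lower without normalization, which moves the median of all probes by 0.22, and 14 and 33 with scaling to the 75th percentile, which moves it by −0.12.

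Among 26 measured oestrogen-induced genes, 4 were higher and 9 lower at 48 h, with a median difference of 0.07. Of all genes measured at 48 h, 21.2% were higher and 19.8% lower past 2-fold, with a median of 0.03. AREG, an EGF receptor ligand, had the largest difference of the list (−8.60), followed by a bound of −5.51 for CCN5 and a value of −4.48 for RERG, a small GTPase. CCND1, the cyclin of the G1 phase that the study used as an ERα readout in other cells, had 10.32 and 10.38 at 24 h and 10.25 and 6.09 at 48 h, a difference of −4.15. Of 11 measured oestrogen-metabolizing enzymes, 6 were lower and 1 higher, with a median of −1.19, beside the same shares of all genes. CYP1B1, which hydroxylates oestradiol, had −3.84, the sulphotransferase gene SULT1E1 a bound of −3.53 and the dehydrogenase gene HSD17B2 a bound of −3.40.

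Of 20 coregulators of ERα, 7 were higher and 2 lower, with a median of 0.76. Beside these and the next 2 lists stand 21.2% higher and 19.8% lower over all genes. The split depends on the scaling over all lists together, and it was not recounted for single lists. The coactivator gene NCOA3 was lower by 2.60 on the log2 scale (difference −2.60), whereas TRIM24 (1.71) and the acetyltransferase gene EP300 (1.34) were higher. Of 12 measured luminal factors and keratins, 1 was higher and 5 lower, led by MUC1 (−5.23), KRT8 (−2.79) and KRT18 (−2.34). Among 6 other steroid and oestrogen-related receptors, 3 were higher and 2 lower, with NR3C2 at 1.80, the glucocorticoid receptor gene NR3C1 at −1.75 and ESRRB at least 1.41.

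Among relatives of the target complex, genes past 2-fold at 48 h lay in both directions. The same held over all genes, of which 41.0% were past 2-fold (21.2% higher and 19.8% lower). Of 9 further exchange factors for ARF GTPases, 0 were higher and 2 lower past 2-fold, PSD4 (−1.32) and CYTH3 (−1.19), while CYTH1 had −0.94. Of 8 measured prohibitin relatives, 1 was higher, STOML2 (1.45), and 3 were lower, among them STOM (−2.71) and FLOT2 (−1.40). PKA and PP1 subunits, whose proteins BIG3 is known to bind, had 1 higher and 1 lower member of 9. PRKAR2B, a regulatory PKA subunit, had 5.08 and 5.27 at 24 h and 4.57 and 8.07 at 48 h, a difference of 3.51, whereas PRKAR1A had −1.30 and PRKAR2A 0.89.

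Of 13 genes of the XBP1 branch of the unfolded protein response, 2 were higher, 1 lower and 10 within 2-fold, with a median of 0.11. Past 2-fold at 48 h were 41.0% of all genes. HERPUD1 (1.18) and SDF2L1 (1.07) were higher, and HSPA5, the main chaperone of the endoplasmic reticulum, had −1.09. The 2.91 of XBP1 itself lay above every gene of this list.

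**Figure D2:**
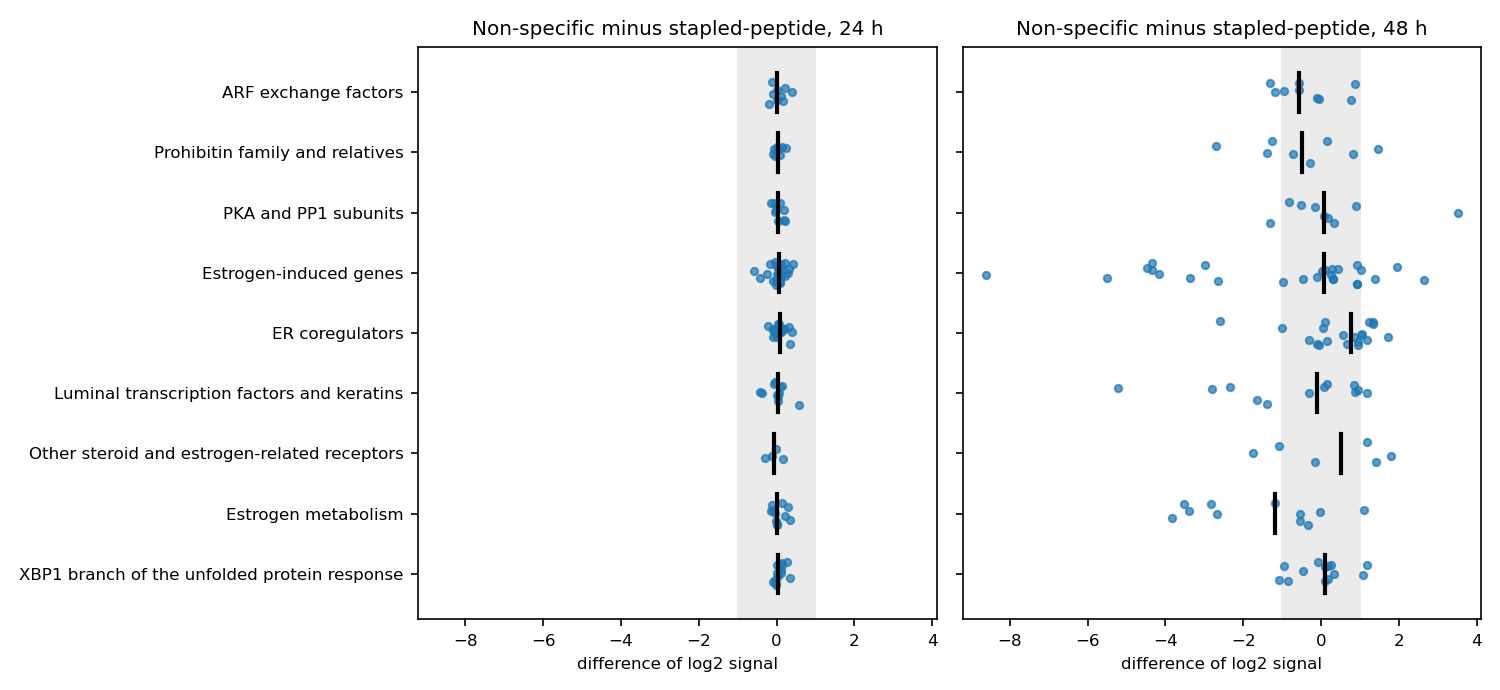
Difference of log2 signal, non-specific stapled-peptide minus stapled-peptide (x axis), for the measured genes of the 9 lists (y axis) at 24 h and 48 h; each point is a gene, black bars are medians and the grey band is within 2-fold. All points lie in the band at 24 h, and 50 of 113 genes lie outside it at 48 h.

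Likeness of pattern was measured as the Euclidean distance between log2 signals centred on their mean over the 4 arrays, among 104 list genes measured on all arrays. XBP1 was nearest to MYB (0.24), which had 6.37, 6.47, 6.36 and 9.01. FOXA1 was nearest to NR2F2 (0.065), HDAC1 (0.099) and HERPUD1 (0.12), and GPER1 to NR3C1 (0.21), ELF3 (0.30) and KRT18 (0.34). The nearest genes were TFAP2A (0.17) for ESR1, CYTH2 (0.16) for TFF1 and SAFB (0.40) for GREB1. For XBP1, FOXA1 and GPER1 the pattern is the contrast of 1 array with the other 3.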

How the data were processed

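The authors' scanner files hold spot intensities that Agilent Feature Extraction made by background subtraction, without normalization between arrays. Their headers name version 10.7.1.1, whereas the submitters' processing notes and the methods name 9.5. The deposited combined table holds the same intensities as the mean log2 signal of the unmarked spots of a probe, transformed back (50590 of 50590 probes within 0.001 on each array). Other deposited columns, the software's marks, gave control, outlier, saturation and background calls.

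After removal of control and outlier-marked spots, each probe took the mean log2 signal of its remaining spots, held at a signal of at least 1, and was quantile-normalized over the 4 arrays, as the methods state. Of 50599 probes, 9 had no spot left on an array. A probe was called well above background if most of its spots carried that mark. Where it was dim on 1 of the arrays compared, the higher of its own signal and the lowest signal well above background on that array was used, and the difference is given as a bound. A gene took the value of its probe with the highest mean. RefSeq accessions of GRCh38.p14 named 28168 of 50590 probes. The genes named were all 10 of the set, the 3 of each list with the largest 48 h difference, CCND1, and the nearest genes in pattern. Members, lists and markers were chosen with earlier results of these data known.

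With 1 array per condition no test was made (a fit of peptide and time as additive terms, with 1 residual degree of freedom, was not run), and precision is limited by the number of arrays. The alternatives, 13 in all, covered no normalization, scaling to the 75th percentile, normexp with an offset of 50, no bound, probes dim on either array removed, marked spots kept, a floor of 0.01, no saturated probes, the combined table, normalization without the 48 h non-specific stapled-peptide array, the mean over probes, and thresholds of 4-fold and 1.5-fold. Normexp used the median pixel signal. On simulated data of 50590 probes the calls were tested, with 100 of 100 probes changed 8-fold called and 0 of 100 changed 1.2-fold. Changes were planted only in bright probes, with less noise than the alike arrays showed, and no probe was treated as dim. This run checked the code alone, and not the calls of dim probes or the bounds. Python 3.11.15, numpy 2.4.6, pandas 2.3.3, matplotlib 3.10.9, R 4.3.3 and limma 3.58.1 were used. A search of BIG3 for the peptide's residues was not run, as no protein sequences were used here.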

Additional observations from a re-analysis of the deposited data

Results flagged for a closer look

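At its brightest probe, ARFGEF3 had a lower signal for non-specific stapled-peptide than for stapled-peptide at 24 h (−1.12) and a higher one at 48 h (at least 3.73), so that the peptide difference changed sign between the times, by at least 4.85 on the log2 scale. With normexp these differences were −0.50, below 2-fold, and 1.73. The change was not tested, and each value comes from 1 spot on 1 array, with the 48 h stapled-peptide spot not well above background. On the 3 arrays that are alike across probes, this probe varied by 2.42 and was well above background on both 24 h arrays. Probes with 1 spot that were dim on these arrays differed in how much they varied. GREB1 A_23_P412476 varied by 1.47, PGR A_23_P138938 by 1.33 and ARFGEF3 A_33_P3246580 by 1.26. ESR1 A_33_P3379356 varied by 0.004 and PGR A_32_P49199 by 0.019.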

How the results depend on the processing

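The labels carry no replicate numbers, and no fit with a replicate block was made. The number of genes of the set past 2-fold at 24 h, 1, became 0 with normexp, with the mean over a gene's measured probes and at 4-fold. At 48 h, 5 became 3 with normexp, 3 once probes dim on either array were removed, which takes out the bounds, and 2 at 4-fold. Over time it went from 5 to 3 with normexp and 2 at 4-fold with non-specific stapled-peptide, and from 1 to 0 with normexp and without such dim probes for stapled-peptide. The 50 list genes past 2-fold at 48 h became 21 at 4-fold, and the 0 at 24 h became 1 at 1.5-fold. The other alternatives kept these counts within 1.5 times. Of 527 values of single probes or genes of the set under an alternative, 48 moved by more than 0.34, the SD of all genes at 24 h, 23 of them with normexp, whose offset of 50 compresses folds of dim probes; of 528 values of named list genes, 18 moved. No difference past 2-fold changed sign. No spot was saturated, so leaving out saturated probes tested nothing.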
